A study of Mus musculus with 2 samples.

Results

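Natriuretic peptide receptors and the genes that make, sense and degrade cyclic GMP (cGMP) were read in mouse glomeruli, the capillary tufts of the kidney filter, on 2 Affymetrix arrays. The 10 genes were Nppb, a peptide ligand, the receptors Npr1, Npr2 and Npr3, the soluble guanylyl cyclase subunits Gucy1a1 and Gucy1b1, the cGMP-dependent kinases Prkg1 and Prkg2, and the phosphodiesterases Pde5a and Pde2a. They were chosen by name, and all 22 probe sets annotated to exactly 1 of these symbols were taken, of 34945 such probe sets for 18193 genes. Both arrays held RNA of male C57BL/6J mice with the floxed alleles GC-A fl/fl and p38 fl/fl. The double knockout also carried Nephrin-Cre in the Cre/+ state, in which the nephrin promoter drives the recombinase in podocytes. The floxed control was Nephrin-Cre(+/+), read here as lacking the Cre allele. Mice of both genotypes were 2 months old and had received 6% NaCl in the diet and aldosterone by osmotic minipump, 0.2 µg/kg/min, both for 3 weeks. GC-A is the protein encoded by Npr1, so 1 of the 10 genes is itself a target of the deletion.

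There was 1 array per genotype, and the number of mice behind its RNA is not given in the labels. No difference below has a replicate check, and no test between genotypes could be made. Values are MAS5 signal intensities, 1 per probe set and array, and differences are on the log2 scale as double knockout minus floxed control. A signal below 52.7, the mean over the arrays of their 40th percentile, was treated as not measured and raised to that floor. The number of arrays limits the precision. The only internal measure of error was the spread between probe sets of a gene: over 5950 genes with a second measured probe set, the differences of both sets lay 0.21 apart in the median and 0.79 apart at the 95th percentile.

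Atrial and brain natriuretic peptides, released mainly by the heart when it is stretched, bind GC-A, whose intracellular domain makes cGMP. C-type natriuretic peptide acts on the related cyclase receptor GC-B, and another receptor, without a cyclase domain, takes the peptides up and clears them. Nitric oxide raises cGMP by another route, through the soluble cyclase. The message is passed on by cGMP-dependent kinases and ended by phosphodiesterases. In the glomerulus this pathway is known for relaxing contractile mesangial cells and for opposing the effects of angiotensin and aldosterone.

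Signal was lower in the double knockout for both cyclase receptor genes and higher for the other 8 genes. Of all measured genes, 56.1% were higher in the double knockout. The median log2 difference of the 10 genes was 0.68, against 0.07 over the 13290 measured genes. All 10 genes were measured. For Nppb this held only through the double knockout array, so it could only come out higher. With signals raised to the floor, none of the 10 was 2-fold higher or 2-fold lower. The shares of all measured genes past 2-fold were 3.53% upward and 2.87% downward. For Nppb the difference is only a lower bound, so its true size may lie past 2-fold. At least 1.5-fold higher were 6 of the 10 genes, Nppb among them, against 13.7% of all measured genes. When probe sets were averaged, Pde5a (0.54), Pde2a (0.50) and Gucy1a1 (0.44) fell short of 1.5-fold. Of the cell type markers described below, 8 of 21 podocyte, 14 of 21 endothelial and 9 of 16 mesangial genes were 1.5-fold higher. So were 6 of 11 parietal and 16 of 18 macrophage markers, but no tubule marker. At least 1.5-fold lower was 1 gene, against 10% of all. Among all genes 469 lay past 2-fold upward and 382 downward, so 55.1% of those past 2-fold were higher. This share was 38.6% after median or 75th percentile centring, 44.9% once the arrays were quantile normalized and 2.50% when differences were recentred on markers of glomerular cells.

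**Figure D1:**
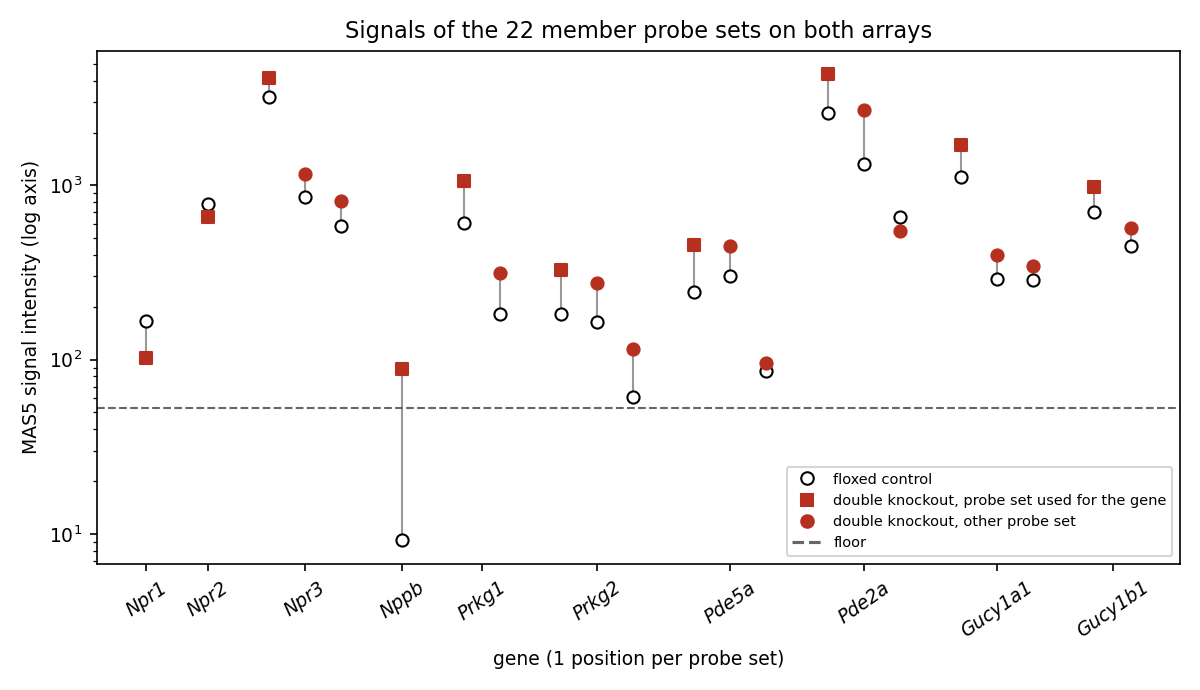
MAS5 signal intensity (log axis) of each probe set of the 10 genes, with the floxed control as open circles, the double knockout in red and the floor of 52.7 as a dashed line; there was 1 array per genotype, so no error bars are drawn. The double knockout lies below the control for Npr1, Npr2 and 1 Pde2a probe set, and above it for the other 19 probe sets.

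Cell type markers differed between the arrays and are given here to stand beside the values that follow. Podocyte markers had a median difference of 0.47, with 18 of 21 above 0 and a summed signal of 128262 in the double knockout against 105425 in the control. Glomerular endothelial markers had a median of 0.72 with 21 of 21 above 0 (summed 85477 and 51469), and mesangial and mural markers 0.72 with 14 of 16 above 0 (50360 and 31890). Parietal epithelial markers had a median of 1.02 with 8 of 11 above 0 (53758 and 34877), which was 0.58 when probe sets were averaged and 0.56 at the set of median difference. Macrophage markers had a median of 0.91 with 18 of 18 above 0 (16970 and 9266). Proximal tubule markers had a median of -0.81 with 0 of 19 above 0 (173922 and 273299), and markers from the loop of Henle to the collecting duct -0.72 with 0 of 15 above 0 (45738 and 65277). No marker with a named probe set was below the floor on both arrays. The defining genes of the filter were present, with Nphs1 (nephrin) at 8373 and 5320, Pecam1 (endothelium) at 3947 and 2052 and Pdgfrb (mesangium) at 3657 and 2665, and so were those of tubules, with Lrp2 (megalin) at 4939 and 8286 and Umod (uromodulin) at 21474 and 23822. The part of these shifts in the differences of the 10 genes was not tested. In such bulk RNA, fewer cells of a type and less RNA per cell cannot be told apart. Recentring on the 69 measured glomerular markers subtracts 0.65 from every gene. Values after it are given for the 10 genes and the list medians where they change a direction. Any other gene with a difference between 0 and 0.65 also turns below 0, which is not repeated for each.

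Nppb encodes brain natriuretic peptide, a ligand of GC-A. Its single probe set (1450791_at) read 88.7 in the double knockout against 9.18 in the floxed control. The control signal lay under the floor and the double knockout signal not far above it. Against the floor the gene was at least 1.69-fold higher, a log2 difference of at least 0.75. The size depended on where the floor was put, at 1.88 with the floor at the 25th percentile and 3.27 with no floor. With the floor at the 60th percentile the gene was not measured on either array.

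The Nppb promoter is shown because this was the only 1 of the 10 genes with a control signal under the floor and its upstream sequence holds well-known cardiac elements, together with the promoter of the deleted receptor Npr1. Sequences are from RefSeq (GRCm38.p6) and give the 250 bases before the gene start, 5′ to 3′ on the gene's strand. In the Nppb line, chr4:147985650-147985899 on the plus strand, capitals mark GATAA (bound by GATA factors), CATTCC or its reverse complement (the M-CAT element, bound by TEAD factors) and TATAAA (the TATA box), each searched on both strands. In the Npr1 line, chr3:90465867-90466116 on the minus strand, capitals mark GGGCGG or its reverse complement, the GC box bound by Sp1.
Nppb: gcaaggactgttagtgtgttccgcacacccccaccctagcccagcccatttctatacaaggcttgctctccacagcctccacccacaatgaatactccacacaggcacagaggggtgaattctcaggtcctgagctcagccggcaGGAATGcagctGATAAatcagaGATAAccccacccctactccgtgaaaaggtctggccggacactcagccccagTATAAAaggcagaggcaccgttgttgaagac
Npr1: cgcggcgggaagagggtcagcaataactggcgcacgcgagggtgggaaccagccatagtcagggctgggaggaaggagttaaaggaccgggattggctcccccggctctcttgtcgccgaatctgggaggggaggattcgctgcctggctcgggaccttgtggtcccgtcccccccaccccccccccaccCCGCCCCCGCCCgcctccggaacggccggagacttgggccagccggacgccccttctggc

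The Nppb window held 2 GATAA matches, 94 to 90 and 83 to 79 bases before the start, 1 M-CAT match 105 to 100 bases before it and 1 TATAAA match 31 to 26 bases before it, none overlapping another. Among 32851 RefSeq windows of the same length, GATAA occurred in 22.6% and at least 2 times in 4.28%, CATTCC in 12.6% and TATAAA in 12.4%. The Npr1 window held 2 adjacent GC boxes on the opposite strand, from 60 to 49 bases before the start, and no match to the other motifs. GGGCGG occurred in 32.7% of all windows and at least 2 times in 16.7%. Of the 10 genes 9 had a window in the RefSeq table, with 15 windows in all, of which 7 held a GC box, 4 GATAA, and 1 each (that of Nppb) CATTCC and TATAAA. The window of Npr1 had a GC content of 70.4% and that of Nppb 54.8%. A match is a description of the letters only.

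Npr1 encodes the deleted receptor GC-A. Its single probe set (1449160_at) read 102 in the double knockout against 167 in the floxed control, both above the floor. The difference of -0.71 (1.63-fold lower) was the lowest of the 10 genes, and 7.01% of all measured genes had a lower one. Among the 500 measured genes nearest in signal, 6.40% had a lower difference, and their 5th percentile was -0.75. Podocyte markers with a lower difference than Npr1 numbered 2 of 21, and no endothelial (21) or mesangial (16) marker was as low, whereas 14 of the 19 proximal tubule markers were lower. The position of this probe set relative to the floxed part of the gene is not given in the sources used here, and signal from outside the deleted exons may not report the deletion. Podocytes are 1 of several cell types in a glomerulus that carry GC-A, and the array does not separate them. The direction was the same in each of 10 alternatives, which ran from -1.36 after recentring on glomerular markers to -0.57 with a pseudocount of 32. With the floor at the 60th percentile Npr1 was not measured.

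Npr2 encodes GC-B, the cyclase receptor for C-type natriuretic peptide, and is not a target of the deletion. Its single probe set (1427191_at) read 661 in the double knockout against 780 in the control. The difference was -0.24 (1.18-fold lower), little more than the 0.21 by which probe sets of one gene typically differ. It lay lower than the difference of every endothelial (21) and mesangial (16) marker and of 18 of 21 podocyte markers, and higher than that of all 19 proximal tubule markers. After recentring on glomerular markers it read -0.89, and in the other alternatives it lay between -0.34 and -0.23.

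Npr3 encodes the clearance receptor, which removes natriuretic peptides and is abundant in podocytes. Its brightest probe set (1435184_at) read 4132 in the double knockout against 3200 in the control, a difference of 0.37. A second set read 1155 and 852 (0.44), and the last 814 and 586 (0.47). The 3 sets, made against different target sequences, thus stood within 0.10 of each other and all on the higher side. The difference of Npr3 was 0.10 below the podocyte marker median, with 8 of 21 podocyte markers lower than it. After recentring on glomerular markers Npr3 turned to -0.28.

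**Figure D2:**
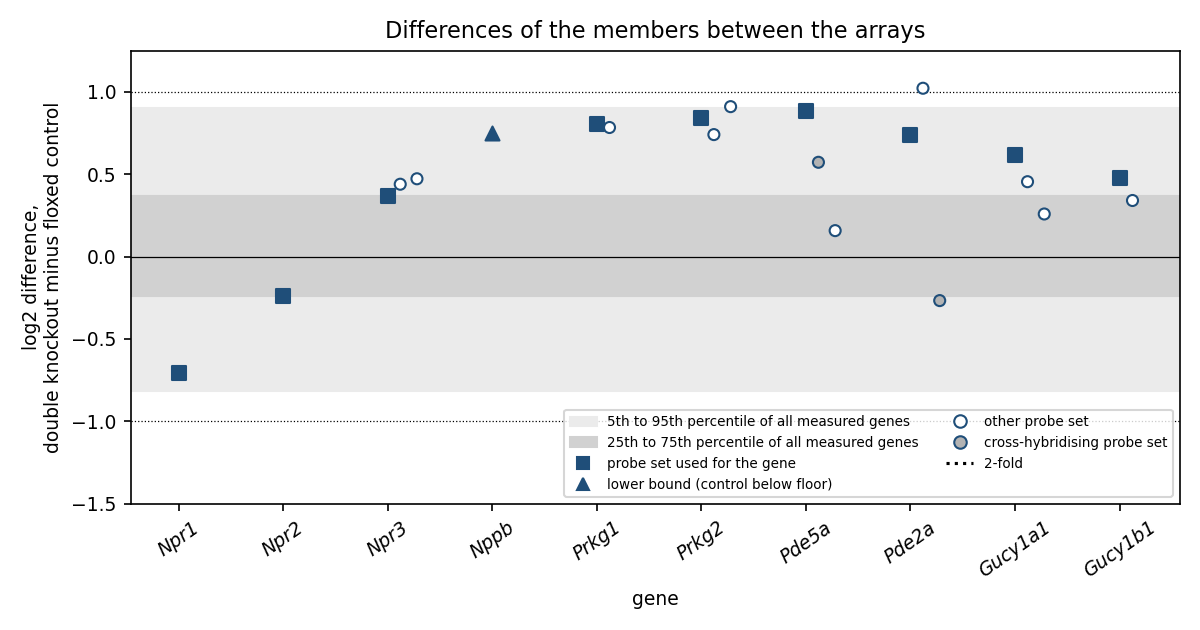
Log2 difference (double knockout minus floxed control) of the probe set used for each gene (filled squares, with a triangle for the lower bound of Nppb) and of its other probe sets (circles, grey where cross-hybridising); shaded bands give the ranges from the 25th to the 75th and from the 5th to the 95th percentile of all measured genes, and dotted lines mark 2-fold. Npr1 and Npr2 lie below 0, while the other genes lie above it, with wide gaps between probe sets for Pde5a and Pde2a.

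The soluble guanylyl cyclase is a heterodimer of an α1 subunit, encoded by Gucy1a1, and a β1 subunit, encoded by Gucy1b1, and makes cGMP when nitric oxide binds its haem. Both genes read higher in the double knockout. Gucy1a1 read 1716 against 1119 in its brightest probe set (1434141_at), a difference of 0.62 (1.53-fold). Its other sets, both made from 1 target sequence, read 399 against 291 (0.45) and 344 against 288 (0.26). Gucy1b1 read 983 against 707 (1420872_at, 0.47 or 1.39-fold) and 570 against 449 (0.34), again in sets from a single target sequence. All 5 probe sets of the heterodimer were therefore higher, by 0.26 to 0.62. The genes are neighbours on mouse chromosome 3 in the RefSeq gene order of GRCm38.p6. Their differences lay below the mesangial marker median of 0.72, and after recentring on glomerular markers they turned to -0.035 for Gucy1a1 and -0.18 for Gucy1b1.

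Both genes for cGMP-dependent kinases read higher in the double knockout in every probe set. Prkg1, which encodes kinase I of smooth muscle, mesangial cells and platelets, read 1055 in the double knockout against 604 in the control (1444232_at), a difference of 0.80 or 1.75-fold. Its second set read 316 and 183 (0.79), 0.02 below the first. Prkg2, which encodes the membrane-bound kinase II, known in the kidney for restraining renin release, read 327 and 183 (1435162_at), a difference of 0.84 or 1.79-fold. Its other sets read 275 and 164 (0.74) and 114 and 60.9 (0.91). All 5 kinase probe sets were higher, by 0.74 to 0.91, but none reached 2-fold. Of all measured genes, 92.8% had a lower difference than Prkg1 and 93.7% a lower one than Prkg2. The mesangial marker median was 0.72, with 9 of 16 mesangial markers lower than each kinase gene, and after recentring on glomerular markers Prkg1 read 0.15 and Prkg2 0.19.

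Both phosphodiesterase genes read higher in the double knockout, with the widest gaps between probe sets among the 10 genes. Pde5a encodes the cGMP-specific phosphodiesterase that sildenafil inhibits. Its main probe set (1455970_at) read 452 in the double knockout against 245 in the control, a difference of 0.89 or 1.85-fold, the largest among the 9 genes above the floor on both arrays; Nppb, known only by its lower bound, has no place in this order. A cross-hybridising set read 450 and 303 (0.57), and the last read 96.0 and 86.1 (0.16), nearer the floor. The direction was the same in all 3, with a range of 0.73.

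Pde2a encodes a phosphodiesterase that cGMP itself stimulates and that degrades both cGMP and cyclic AMP; it is an endothelial gene in many vessels. The set used for the gene (1447707_s_at) read 4356 in the double knockout against 2614 in the control, a difference of 0.74 or 1.67-fold. A second set (1452202_at) read 2711 and 1335, a difference of 1.02 or 2.03-fold. It was the only 1 of the 22 probe sets past 2-fold with signals raised to the floor. Of 24455 measured probe sets with 1 symbol, 3.27% were past 2-fold upward. None of the 22 was past it downward, where 2.39% of all were. The third, a cross-hybridising set (1447708_x_at), went the other way at 548 and 659 (-0.27). Among the 7 genes with several probe sets, Pde2a alone had sets of opposite direction. Its difference was 0.02 above the endothelial marker median, and after recentring on glomerular markers it read 0.08. With the mean over probe sets Pde2a read 0.50 and Pde5a 0.54.

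**Figure D3:**
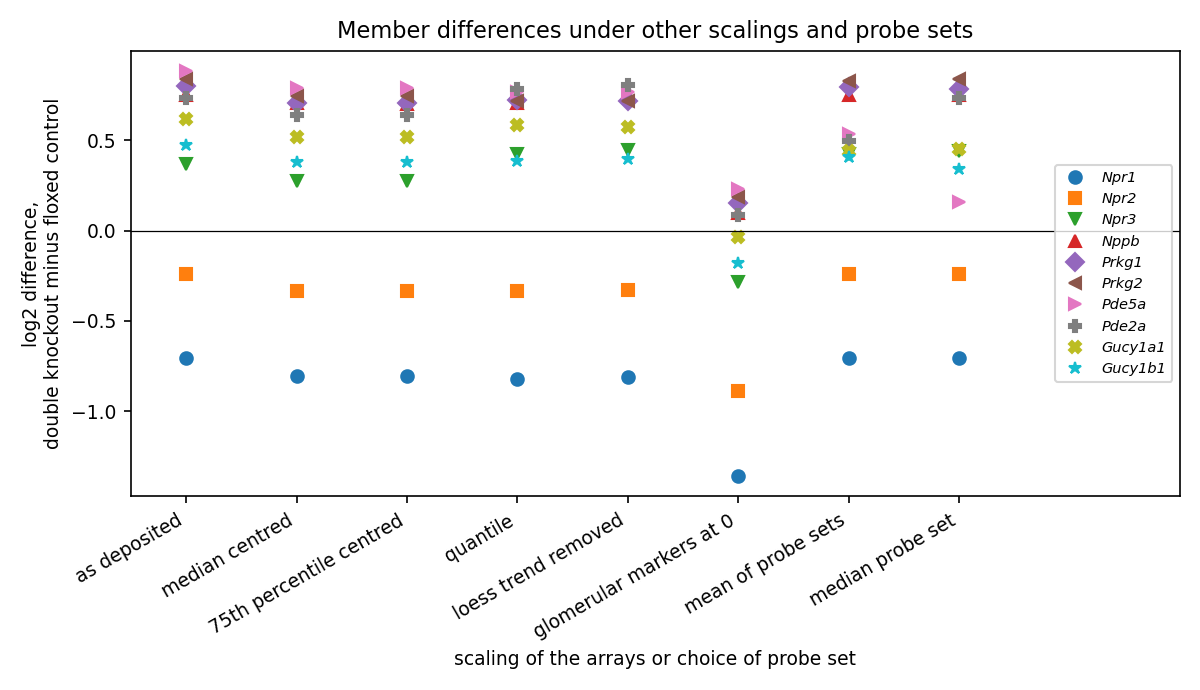
Log2 difference (double knockout minus floxed control) of each of the 10 genes, marked by symbol and colour, with signals as deposited, under 5 other scalings of the arrays and under 2 other choices of probe set. Npr1 and Npr2 lie below 0 in every column; the other 8 lie above 0 except for Npr3, Gucy1a1 and Gucy1b1 after recentring on glomerular markers.

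The genes around these 10 in the pathway did not move in 1 direction. Of 70 further genes on 5 lists, probe sets were named for 62, and 42 were measured. Of these 42, 24 were above 0, a share near the 56.1% of all measured genes, and 18 were below. Their median was 0.27. The same 56.1% stands beside the count above 0 of each list that follows. Past 2-fold were 1 of the 42 upward and 3 downward, against 3.53% and 2.87% of all measured genes.

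Among the peptide ligands and the proteases that process them, 3 of 6 genes were measured. Nppa (atrial peptide) read 40.3 in the double knockout against 26.0 in the control, and Nppc (C-type peptide) 6.00 and 6.29, below the floor on both arrays, as was Corin, the protease that activates the atrial peptide; these unmeasured genes fall outside the naming rule. Mme, which encodes neprilysin, a membrane protease that degrades natriuretic peptides, read 4976 and 3236 (0.62, second set 0.26). Furin, a convertase that cleaves the precursors of brain and C-type peptides, read 1376 and 1181 (0.22). Ide, which encodes insulin-degrading enzyme, read 1643 and 1808 (-0.14, with 4 other sets from -0.41 to -0.04). None of the 3 reached 2-fold, and their median was 0.22.

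Genes of nitric oxide supply differed in both directions, with 6 of 11 measured genes above 0, 5 below and a median of 0.26. Ddah1, which encodes an enzyme that breaks down an inhibitor of nitric oxide synthases and is strongly expressed in kidney tubules, read 3644 in the double knockout against 7824 in the control, 2.15-fold lower (-1.10, with 4 other sets from -1.31 to -0.48). It was no longer past 2-fold after quantile normalization, after removal of a loess trend, when probe sets were averaged or at the set of median difference. Gch1, the first enzyme in the synthesis of the synthase cofactor tetrahydrobiopterin, read 250 and 138 (0.86, second set 0.50). Nostrin and Cav1, which encode proteins that bind the endothelial synthase, read 667 and 389 (0.78) and 3707 and 2179 (0.77). Nos3, the endothelial synthase itself, read 725 and 519 (0.48), and Nos2, the inducible synthase, was below the floor at 32.3 and 6.82; both were picked after their values were seen. Averaging over the probe sets of each gene put the median of this list at -0.023, and taking the set of median difference put it at -0.026.

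Of the other guanylyl cyclases and their peptides, 3 of 6 genes were measured. Gucy1a2, the α2 subunit of the soluble cyclase, read 638 and 409 (0.64), close to the value of Gucy1a1. The peptide genes Guca2b (uroguanylin) and Guca2a (guanylin), ligands of the intestinal cyclase receptor, read 5644 and 11591 (-1.04, 2.05-fold lower) and 84.6 and 161 (-0.93). Gucy2c, which encodes that receptor, was below the floor at 32.3 and 2.83, and was picked after its values were seen. The list median was -0.93, but -0.25 with the floor at the 25th percentile and -0.20 at the 60th, in arrays in which the proximal tubule markers had a median of -0.81; the part of tubule RNA in it was not tested.

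The other phosphodiesterases that hydrolyse cGMP or respond to it had a median of -0.02, with 4 of 8 measured genes above 0. Pde9a, which encodes a cGMP-specific enzyme of high affinity, read 267 in the double knockout against 543 in the control, 2.04-fold lower (-1.03), opposite in direction to Pde5a; it was no longer past 2-fold with a pseudocount of 32. Pde6a, a photoreceptor enzyme, read 47.3 and 90.3, at least 1.72-fold lower, with the double knockout below the floor. Pde3a, an enzyme whose action on cyclic AMP is inhibited by cGMP, read 156 and 101 (0.62), and Pde1b, a calcium-activated enzyme, 99.4 and 71.0 (0.49).

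Substrates and partners of the kinases, cGMP-gated channels and cGMP exporters had a median of 0.54, with 11 of 17 measured genes above 0. Rgs4, which encodes a brake on G protein signalling, read 229 in the double knockout against 100.01 in the control, 2.29-fold higher (1.19), while its other sets read 0.59 and 0.61. It was no longer past 2-fold with the floor at the 60th percentile, with a pseudocount of 32, when probe sets were averaged, at the set of median difference or after recentring on glomerular markers. Rgs2, a related regulator that kinase I phosphorylates, read 2524 and 1412 (0.84, and at least 0.72 in 3 other sets). Plcb3, a phospholipase, read 563 and 340 (0.73). Kcnma1, the calcium-activated potassium channel that kinase I opens in smooth muscle, read 91.2 and 55.3 (0.72), but its second set went the other way (-0.72). Mrvi1, which encodes a partner of kinase I in calcium stores, read 512 and 324 (0.66, second set 0.11) and Vasp, a classical kinase substrate, 1924 and 1544 (0.32); both were picked after their values were seen. Averaging over the probe sets of each gene put this median at 0.32, the set of median difference put it at 0.15, and recentring on glomerular markers at -0.11.

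**Figure D4:**
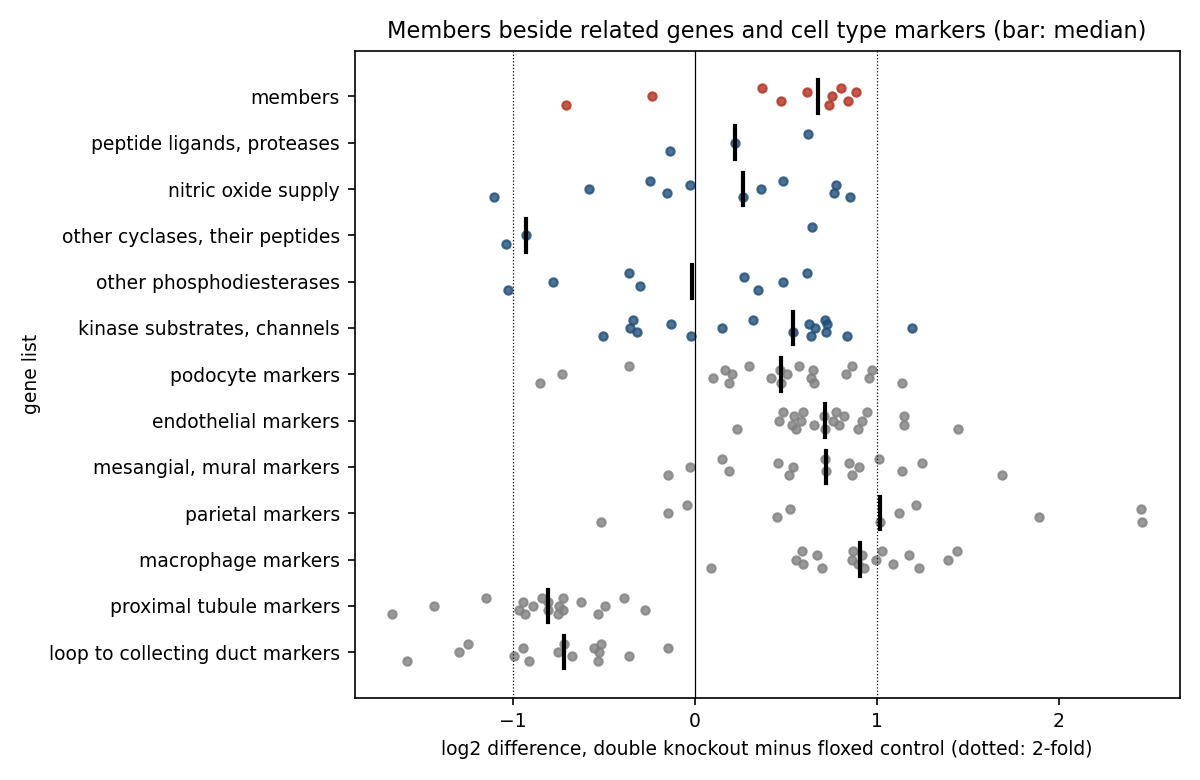
Log2 difference (double knockout minus floxed control, horizontal) of each measured gene on each list (vertical), with the 10 members in red, related pathway genes in blue, cell type markers in grey, medians as black bars and 2-fold as dotted lines. The median of the members is 0.68, within the range of 0.47 to 1.02 of the glomerular marker lists (the upper end, of parietal markers, is 0.58 when probe sets are averaged), while both tubule marker lists lie wholly below 0. After quantile normalization or removal of a loess trend, the members' median lies below that of each glomerular list.

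Set beside the cell type markers, the median of the 10 genes (0.68) lay between those of the podocyte list (0.47) and the endothelial and mesangial lists (0.72 each). This order depended on the scaling. After quantile normalization the median of the 10 genes was 0.648 and that of the podocyte list 0.649. With a loess trend removed they were 0.649 and 0.667, and in both cases the endothelial and mesangial medians were higher still. Over the 9 genes without Npr1 the median, with signals as deposited, was 0.74, above those of all 3 of these lists. Nppb, which could only come out higher, counts among these 9, and the order without Nppb was not examined. After recentring on glomerular markers the median of the 10 genes was 0.025. Pde5a, Prkg2, Prkg1 and Pde2a then read between 0.08 and 0.23, and Nppb had a lower bound of 0.10. Gucy1a1, Gucy1b1 and Npr3 read between -0.28 and -0.035, and Npr2 and Npr1 at -0.89 and -1.36. Npr1 was then the only 1 of the 10 genes at least 2-fold lower, where 2538 of 13290 measured genes were so by the same shift. The gap from Npr2 up to the next higher gene, Npr3, was smaller than 0.79, the 95th percentile of the spread between probe sets of a gene. Prkg1, Prkg2, Pde5a and Pde2a lay within 0.21 of each other.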

How the data were processed

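Glomeruli were isolated by sieving and their RNA was labelled with biotin for 1-colour 3′ expression arrays, per the labels' protocols. The deposited values were MAS5 signal intensities on a linear scale, per the submitters' processing notes, with version and settings not given in the sources used here. From the values, the mean intensity after trimming 2% at each end was 500.0 on both arrays, so a difference is relative to the rest of that array. Detection calls were not used here.

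Signals were used as deposited, with log2 taken after raising those under the floor of 52.7. The 64 control probe sets were left out. Probe sets were named from the platform annotation, and older or newer symbols on the lists were matched through RefSeq (GRCm38.p6). A gene was represented by its brightest probe set with 1 symbol, with sets marked _x_at (which can cross-hybridise) used only in the absence of another, and counted as measured if at least 1 array was at or above the floor. Differences were counted at 2-fold, with 1 array per group and no test. The 10 genes, the lists and the rules were chosen with earlier results of these data known. The text names every probe set of the 10 genes, and of each pathway list the genes past 2-fold and the next 3 by size; others are marked. Scripts ran in Python 3.11.15 with pandas 2.3.3 and statsmodels 0.14.6 (loess). They were tested on simulated signals with planted differences larger than those of the 10 genes at the floor of 52.7, in genes well above it. That test does not cover differences of the size reported for the 10 genes. Alternatives were other floors, scalings, probe set choices and a 1.5-fold rule; leaving out Npr1 and counting all probe sets were added after the data were examined.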

Additional observations from a re-analysis of the deposited data

How the results depend on the processing

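With 1 array per genotype, every value rests on 2 arrays and no replicate could be left out. No paired analysis was possible because each group has 1 array and the labels carry no replicate numbers. The median of the 10 genes read 0.025 after recentring on glomerular markers and 0.45 when the set of median difference was used; in 11 other alternatives it moved by less than 0.21. The count of the 10 genes at least 2-fold higher, 0 as reported, was 1 (Nppb) with the floor at the 25th percentile, with no floor or with a pseudocount of 32, 1 (a Pde2a set) when all 22 probe sets were counted, and 6 at 1.5-fold. The count lower was 1 (Npr1) after recentring and 1 at 1.5-fold. Over all genes, 274 were higher with the floor at the 60th percentile and 302 when probe sets were averaged; 65 were higher and 2538 lower after recentring, and 1820 and 1331 at 1.5-fold. Directions turned after recentring for Npr3 (-0.28), Gucy1a1 (-0.035), Gucy1b1 (-0.18), and the medians of peptide ligands and proteases (-0.43), nitric oxide supply (-0.39), kinase substrates and channels (-0.11), podocyte markers (-0.18) and all genes (-0.58). The all-gene median also turned, to -0.024 under median centring and -0.025 under 75th percentile centring. That of nitric oxide supply read -0.023 when probe sets were averaged and -0.026 at the set of median difference, and that of other phosphodiesterases 0.14 with the floor at the 25th percentile. Beyond the arithmetic of the shift, the cause was not tested. Signals near or under the floor limit Nppb, Npr1, Nppa and Nppc.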
